A study of Mus musculus with 8 samples.

Results

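The data are single-cell RNA counts of endothelial cells from mouse mesentery and epididymal adipose tissue, and the genes described are 8 that build caveolae and the diaphragms that close them and close fenestrae: Cav1, Cav2, Cavin1, Cavin2, Cavin3, Ehd2, Ehd4 and Plvap. They were taken by symbol, 8 of the 30406 genes counted in every library, and were chosen with earlier results of these data known. Male ROSA26-eYFP+/+ Cdh5-CreERT2+ mice were used in every group. Cdh5 is an endothelial cadherin gene, so tamoxifen switches on YFP in endothelial cells through its promoter. Tamoxifen was given in food for 2 weeks, starting at 6 weeks of age. At 8 weeks the mice moved to chow (5.8% fat) or to a high fat diet (60% fat), which they had for 12 to 13 weeks. Crossing the 2 diets with the 2 tissues gives 4 groups, named chow or high fat mesentery and chow or high fat adipose below. Each group has 2 libraries, 1 from each of 2 runs of the experiment (A and B), and each library pools YFP-sorted cells of 6 mice, so the p-values measure the spread between pools.

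Caveolae are small flask-shaped pits of the plasma membrane that are abundant in endothelium and fat cells. The caveolins are membrane proteins that oligomerise to shape the pit, the cavins form a coat on its cytoplasmic side, and EHD ATPases act at its neck. PLVAP forms the thin diaphragm across the mouth of endothelial caveolae and across fenestrae, the pores of permeable capillaries and venules.

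Caveolin 1 is required for caveolae in endothelium, and caveolin 2 forms hetero-oligomers with it. Cav1 (chromosome 6, 17306335 to 17341452, plus strand, GRCm38) begins 17219 bases after the end of Cav2 (17281185 to 17289115, plus strand). Cavin1, on the minus strand of chromosome 11 (100956733 to 100970887), encodes the cavin that the coat cannot form without. Cavin2 lies on the plus strand of chromosome 1 (51289126 to 51302960). The 250 bases before the RefSeq start of these 4 genes are shown. Cav1, Cav2 and Cavin1 varied together across the cell classes (r = 0.78 to 0.93). Cavin2 hardly varied with them over both runs (0.12 to 0.18), and did so more closely in run B alone (0.59 to 0.65). Ehd2 varied with the first 3 as well (0.82 to 0.91), and its window is described below without its sequence. They are RefSeq sequence (GRCm38.p6), written 5′ to 3′ on the gene's strand, and capitals mark GGGCGG or CCAAT or the reverse complement of either. The RefSeq start of Cavin1 lies inside the annotated gene span given above.
Cav1, chr6:17306085-17306334, plus strand: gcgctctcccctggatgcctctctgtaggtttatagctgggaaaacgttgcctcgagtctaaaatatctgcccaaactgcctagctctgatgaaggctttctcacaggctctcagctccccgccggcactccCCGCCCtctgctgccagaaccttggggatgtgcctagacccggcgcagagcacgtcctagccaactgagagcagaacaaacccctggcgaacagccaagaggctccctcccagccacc
Cav2, chr6:17280935-17281184, plus strand: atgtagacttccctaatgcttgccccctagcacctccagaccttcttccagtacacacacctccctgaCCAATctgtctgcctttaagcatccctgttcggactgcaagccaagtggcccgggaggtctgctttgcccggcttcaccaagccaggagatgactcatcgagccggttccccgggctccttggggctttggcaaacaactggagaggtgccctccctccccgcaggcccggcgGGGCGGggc
Cavin1, chr11:100970618-100970867, minus strand: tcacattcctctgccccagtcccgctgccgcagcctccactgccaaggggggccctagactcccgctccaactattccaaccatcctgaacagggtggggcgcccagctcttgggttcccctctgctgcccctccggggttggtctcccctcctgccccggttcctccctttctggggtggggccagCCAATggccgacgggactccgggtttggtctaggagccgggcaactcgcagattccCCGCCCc
Cavin2, chr1:51288876-51289125, plus strand: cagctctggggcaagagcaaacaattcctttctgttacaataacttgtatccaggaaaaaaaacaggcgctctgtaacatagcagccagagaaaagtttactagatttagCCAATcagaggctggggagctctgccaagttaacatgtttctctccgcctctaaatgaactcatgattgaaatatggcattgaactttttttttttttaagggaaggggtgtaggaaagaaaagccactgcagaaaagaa

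The GC box letters GGGCGG stand once in the Cav1, Cav2 and Cavin1 windows, on either strand, and not in the Cavin2 window; 32.9% of 27025 mouse windows of the same length hold them. CCAAT, on either strand, stands in the Cav2, Cavin1 and Cavin2 windows and in 34.5% of all windows. The letters TATAAA, on either strand, stand in the Cav1 window and in 13.0% of all windows, and CACGTG in none of the 4 and in 6.0% of all windows. GC content was 59.6% for Cav1, 62.0% for Cav2, 67.6% for Cavin1 and 40.4% for Cavin2, against a median of 52.0% over all windows. A match to these letters is a description of the window only. Of the other members, Ehd2 (58.0% GC) and Ehd4 (61.2% GC) also have a window in the RefSeq table, each with a single GGGCGG. On either strand, Ehd2 has 1 CCAAT match and Ehd4 has 3.

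The 8 libraries held 27944 barcodes, and 23113 cells were used. Run A was shallow, with 1352 to 2780 barcodes and 3461360 to 6714473 UMIs a library, and run B deeper, with 3189 to 6218 barcodes and 18829960 to 36779289 UMIs. Cells were clustered without the 8 genes, and endothelial clusters were named from markers as arterial-like, capillary-like, venous-like and lymphatic-like. Levels are CPM, the usual counts per unit of depth, of the summed cells of a class in a library, scaled between libraries within the class; levels of single clusters and of other cell types are not scaled further. Reads were from transcript 3′ ends, so levels are compared between cells and not between genes. Capillary-like cells were few in run A (38 to 154 a library, against 807 to 1954 in run B). Cells of adipocyte type stood out in the chow libraries of run B, which held 386 and 288 adipocyte-like cells against at most 24 in the other libraries. The reporter itself is in neither run's gene list, so the sort was not checked by it. The matrices of the runs were written by different software versions and their gene lists differ, so differences between runs given below cannot be told apart from that processing.

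Across the classes Cav1 was lowest in lymphatic-like cells. Its mean level was 398 ± 69.1 CPM there (SD over 8 libraries), 813 ± 250 in venous-like, 1190 ± 438 in arterial-like and 1460 ± 674 in capillary-like cells. In all 8 libraries lymphatic-like cells had less Cav1 than each of the other 3 classes, and the capillary-like level was on average 3.32-fold higher. Capillary-like exceeded arterial-like cells in 7 of 8 libraries, but by a mean of 0.23 on the log2 scale with an SD of 0.37, so these neighbours do not differ beyond their spread. Cav2 had the same order, from 253 ± 108 CPM in lymphatic-like to 546 ± 303 in capillary-like cells, and venous-like and lymphatic-like cells lay within their spread of each other (higher in venous-like cells in 5 of 8). These are descriptions of classes rebuilt from markers, with no test.

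Cavin1 followed the caveolins. It measured 241 ± 63.3 CPM in lymphatic-like, 516 ± 123 in venous-like, 701 ± 83.8 in arterial-like and 739 ± 313 in capillary-like cells, and was lowest in lymphatic-like cells in every library. For Cavin2, a cavin that binds Cavin1 in the coat and is known to vary between tissues, the order depended on the run. In run A its mean was 1192 CPM in capillary-like and 2034 CPM in lymphatic-like cells, and lymphatic-like cells were higher in all 4 libraries. In run B the means were 2799 CPM in capillary-like and 1768 CPM in lymphatic-like cells, and capillary-like cells were higher in all 4 libraries, as for the caveolins. Lymphatic-like cells had more Cavin2 than arterial-like cells in 6 of 8 libraries, with means of 1902 ± 288 and 1543 ± 335 CPM. Cavin3, a cavin known to recruit signalling proteins (chromosome 7, 105480083 to 105482300, minus strand), was higher in venous-like cells (553 ± 128 CPM) than in capillary-like cells (365 ± 45.8 CPM) in 8 of 8 libraries. Ehd2, whose product holds the caveolar neck at the membrane (chromosome 7, 15946958 to 15967567, minus strand), was higher in arterial-like (513 ± 103 CPM) than in venous-like (281 ± 91.7 CPM) and lymphatic-like cells (213 ± 68.6 CPM) in every library.

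Ehd4 and Plvap had a different order, with venous-like cells on top. Ehd4, a membrane-remodelling ATPase related to Ehd2 (chromosome 2, 120089175 to 120154606, minus strand), stood at 1374 ± 246 CPM in venous-like, 493 ± 322 in arterial-like, 240 ± 174 in capillary-like and 108 ± 28.7 in lymphatic-like cells. Venous-like cells exceeded lymphatic-like cells on average 12.8-fold, and they exceeded every other class in all 8 libraries. Plvap (chromosome 8, 71497765 to 71511752, minus strand) stood at 2050 ± 362 CPM in venous-like, 674 ± 730 in capillary-like, 617 ± 229 in lymphatic-like and 337 ± 235 in arterial-like cells. It was highest in venous-like cells in every library, while the order of the other 3 classes changed between libraries.

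**Figure D1:**
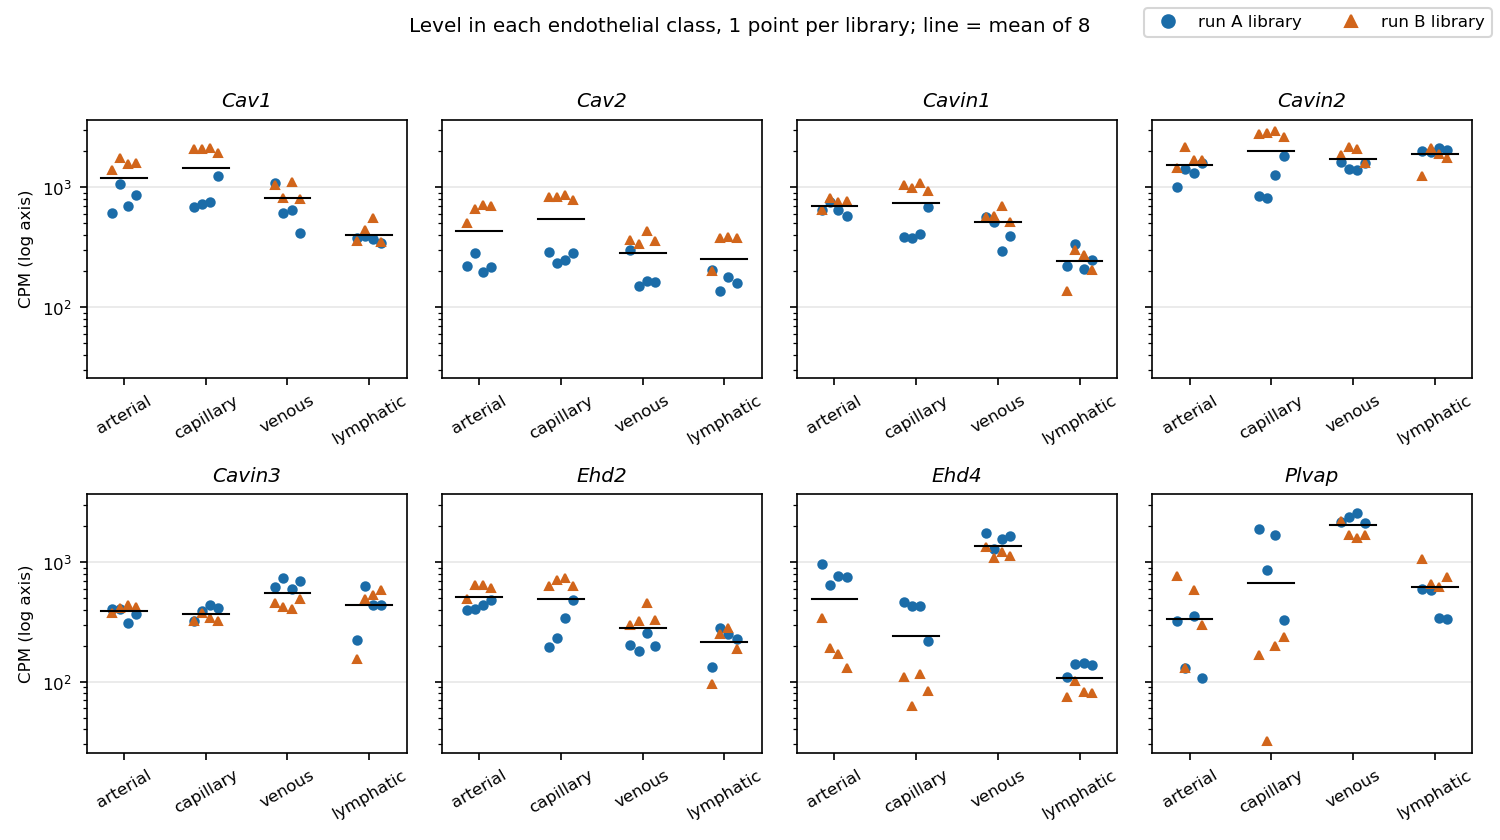
Level of each gene in CPM (log axis) by endothelial class; each point is 1 library, circles run A and triangles run B, and the line is the mean of 8 libraries. Venous-like cells stand above the other classes for Ehd4 and Plvap in every library, lymphatic-like cells lie lowest for Cav1 and Cavin1, and the capillary-like Cavin2 points are split by run.

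Once each cell was thinned to 1000 UMIs, the median share of cells with a Plvap or an Ehd4 UMI was also highest in the venous-like class. Plvap was seen in a median of 83.2% of venous-like cells over 8 libraries (65.4 to 88.8%, 91.8% unthinned, median depth 4740.5 UMIs). It was seen in 32.8% of lymphatic-like, 22.3% of arterial-like and 18.4% of capillary-like cells. These last classes stood in another order than by mean CPM, and the capillary-like share ranged from 2.6 to 71.9%. Ehd4 was seen in 67.3% of venous-like cells and 9.0% of lymphatic-like cells. In T cell-like cells the medians were 0.0% for Plvap and 2.0% for Ehd4 over 7 libraries with a median depth of 3099 UMIs. Ehd4 is not restricted to endothelium: macrophage-like cells held a median of 394 CPM, where Plvap was at 6.81 CPM. Cav1 had a median of 960 CPM in mural-like and 1017 CPM in adipocyte-like cells, other cell types known to carry caveolae, beside 10.4 CPM in T cell-like cells.

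Over 32 profiles (4 classes in 8 libraries, each library centred on its own mean) Cav1 correlated with Cavin1 (r = 0.93), Cav2 (0.89) and Ehd2 (0.87), and with Cavin2 at 0.12. Over the 16 profiles of run B alone Cavin2 correlated with Cav1 at 0.59 and with Cav2 and Cavin1 at 0.65 each, while Cav1 correlated with Cavin1 at 0.97. Plvap correlated with Ehd4 (0.58) and Cavin3 (0.53) and stood opposite to Ehd2 (-0.59) and Cav2 (-0.56). Of 3427 genes with a mean of at least 50 CPM, those most like Cav1 were Cdh5 (0.95), the endothelial cadherin, then Cyyr1 (0.94), Tspan13 (0.93), Cavin1 itself (0.93) and Cd36 (0.92), a fatty acid transporter. Among those most like Plvap were Rpl13 (0.89), Rpl6 (0.88) and Rpl35 (0.85), which encode ribosomal proteins, and Tspan5 (0.86), which encodes a tetraspanin. The profiles share libraries and depth, and the correlations are a description.

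Within the blood endothelial classes Plvap and Ehd4 differed by cluster. Venous-like cluster 6 and cluster 8 (Selp, Sele) held 1363 to 2405 and 2019 to 3162 CPM of Plvap in libraries with at least 10 cells. Cluster 27, whose leading genes Glycam1 and Madcam1 belong to high endothelial venules, kept Plvap (1909 to 2353 CPM) but had far less Ehd4 (295 to 466 CPM) than clusters 6 and 8 (1160 to 2178 CPM). Cluster 22, endothelial and led by Scgb3a1, Esm1 and Col13a1, had no class name and held 1156 to 3491 CPM of Plvap. Cluster 17, led by Klk10, Cytl1 and Adh7, was also unnamed. Its best match was the arterial list, with 11 arterial markers raised, but more of its leading genes belonged to another class. The arterial-like levels above leave this cluster out. It held 1558 to 2178 CPM of Ehd4, as much as venous-like cells. Its Plvap was 448 and 571 CPM in chow mesentery and 760 and 803 in high fat mesentery, runs A and B in turn, and in adipose on chow it was 0 of 26 cells in run A, which allows up to 11.5% of cells or 48.3 CPM (3 counts), and 10.2 CPM (2 UMIs in 32 cells) in run B. The high fat adipose libraries had under 10 such cells. No test is given for these clusters, which were picked with their values known.

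**Figure D2:**
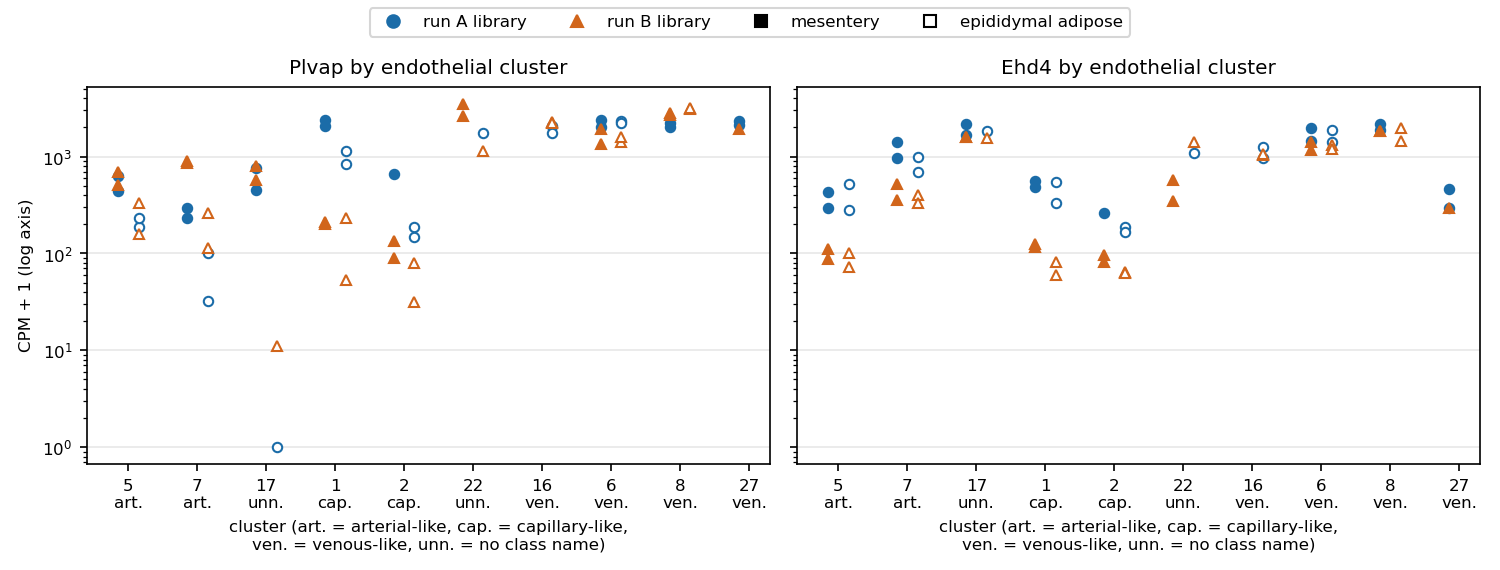
Plvap and Ehd4 in CPM + 1 (log axis) by endothelial cluster, 1 point per library with at least 10 cells; blue circles are run A, orange triangles run B, filled symbols mesentery and open symbols epididymal adipose. In arterial-like clusters 5 and 7 and in cluster 17 the filled Plvap symbols stand above the open ones of the same run, and the open circle at 1 is a count of 0.

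The diet and tissue contrasts were tested per class with edgeR's quasi-likelihood test on the summed counts of all 8 libraries, 20 contrasts in all. Without a term for the run, 0 of 8 members passed an adjusted p of 0.05 in any contrast, and 8 of 160 tests had an unadjusted p under 0.05. From 5 of 10375 to 1009 of 9005 genes had such an unadjusted p in a contrast. DESeq2 called 1 member in that design and limma-voom 0. Of all genes, 0% were called in 19 contrasts and 1.9% in the tissue contrast on chow in lymphatic-like cells. Libraries of the same run deviated together, so each contrast was also fitted with the run as a block, and 7 of 160 member tests then passed. These were Plvap in 3 contrasts and Cavin3 and Ehd2 in 2 each. Cav1, Cav2, Cavin1, Cavin2 and Ehd4 passed in none. With the block genes were called in 16 of the 20 contrasts, at most 9.39% of all genes, for tissue on chow in lymphatic-like cells. An unadjusted p under 0.05 was then found in 24 of 160 member tests, and for 101 of 10375 to 1781 of 9005 genes in a contrast.

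**Figure D3:**
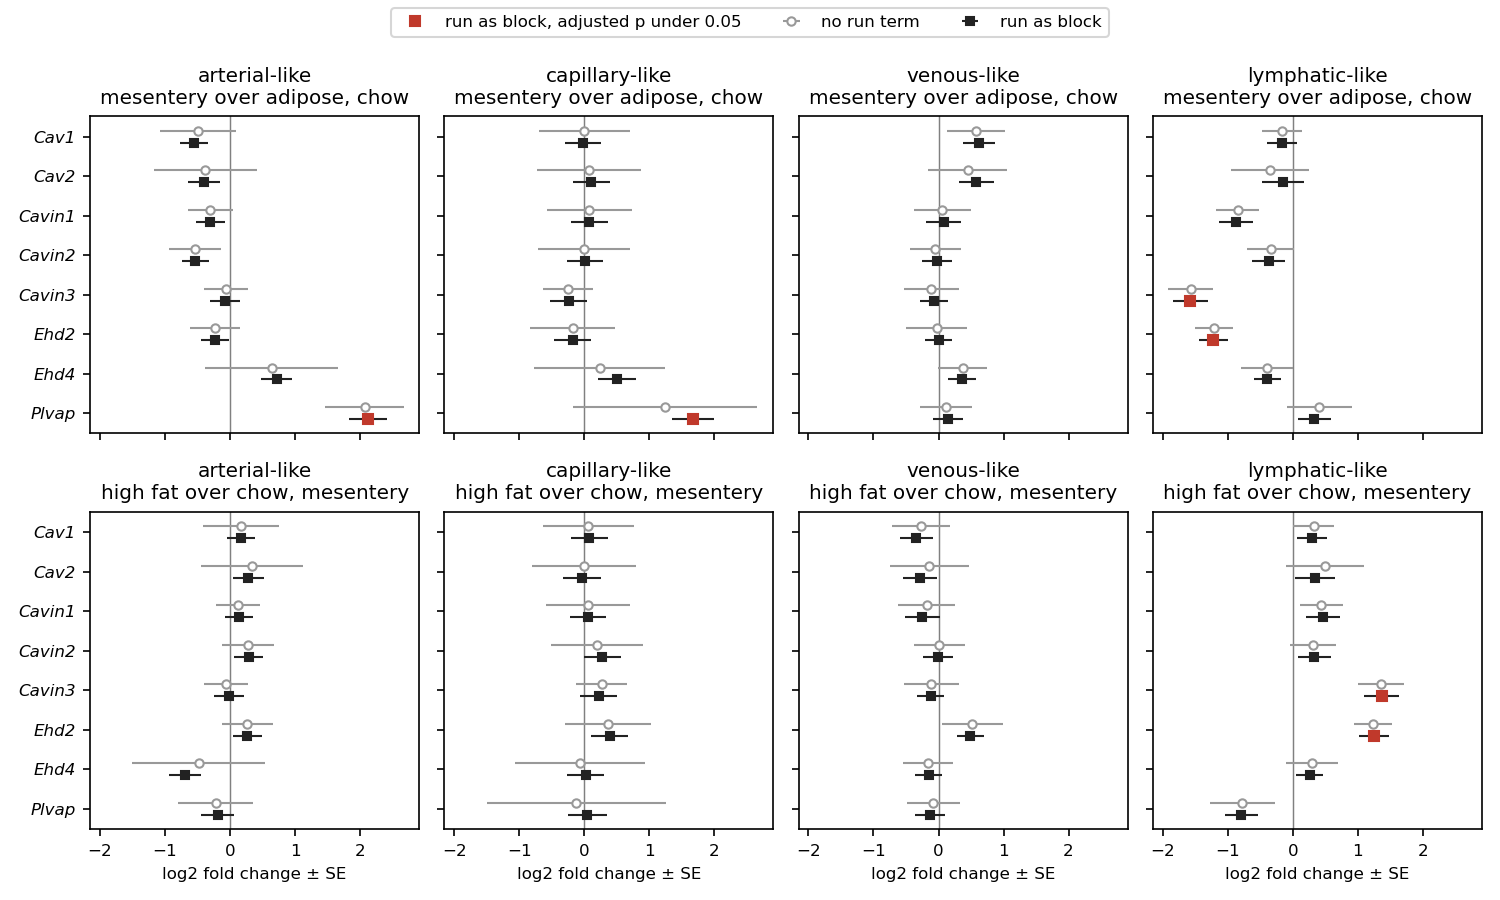
Log2 fold changes of the 8 genes (points, with SE bars) for mesentery over adipose on chow (top) and high fat over chow in mesentery (bottom), by class; open circles are fits without a run term, squares fits with the run as block, and red squares have an adjusted p under 0.05. Plvap is marked in arterial-like and capillary-like cells on chow, and Cavin3 and Ehd2 in lymphatic-like cells in both contrasts, with opposite signs.

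Plvap in arterial-like cells was higher in the mesentery. On chow it measured 323 CPM in run A and 766 in run B in the mesentery, against 131 and 130 CPM in epididymal adipose. On high fat diet the mesentery values were 353 and 585 CPM and the adipose values 108 and 298 CPM. All 4 mesentery libraries stood above all 4 adipose libraries. On chow the mesentery exceeded adipose by 2.12 ± 0.29 on the log2 scale with the run as block (4.35-fold, edgeR adjusted p = 0.000201), and by 2.07 ± 0.61 without it (adjusted p = 1). Plvap was the 1 member of 8 called, where 0.566% of genes were called. The call was lost without the run B chow library of the mesentery (1.83, adjusted p = 0.176) or of adipose (1.43, adjusted p = 0.137).

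On high fat diet the same tissue difference was 1.20 ± 0.27 with the block and missed the threshold (edgeR adjusted p = 0.105). The test of whether the tissue difference depended on diet gave -0.91 ± 0.39 (adjusted p = 1), so the diets were not shown to differ. Both larger arterial-like clusters had the difference: in cluster 7 (Gja5, Gkn3) Plvap was 290 and 911 CPM in mesentery on chow against 101 and 112 in adipose, and in cluster 5 (Alox12, Hey1) 436 and 700 against 186 and 157. Thinned to 1000 UMIs, 21.9% (exact 95% interval 12.5 to 34.0%) and 39.0% (34.4 to 43.7%) of arterial-like cells in chow mesentery had a Plvap UMI, against 10.1% (5.6 to 16.3%) and 10.6% (8.4 to 13.2%) in chow adipose. Shares without thinning ranged from 12.6 to 57.8% in these 4 libraries. The intervals cover counting error only. Summed venous markers in these cells were 2269 and 690 CPM in chow mesentery and 891 and 559 CPM in chow adipose, and summed capillary markers 1921 and 5463 against 2678 and 9730 CPM; their part in the result was not tested. Summed adipocyte markers were 51.2 and 870 CPM in chow mesentery and 34.0 and 1842 CPM in chow adipose; in cells without adipocyte UMIs the blocked difference was 2.28 (edgeR adjusted p = 0.00973). The median over the 8 members was -0.27, beside -0.02 over all genes. Cav1 (-0.55 ± 0.22, adjusted p = 0.582) and Cavin2 (-0.53 ± 0.21, adjusted p = 0.634) lay on the other side and were not called.

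Plvap in capillary-like cells differed more between the runs than between tissues or diets. In run A it was 1885 CPM in chow mesentery, 855 in chow adipose, 1686 in high fat mesentery and 329 in high fat adipose. In run B the values in the same order were 167, 31.7, 201 and 235 CPM. Every run A library stood above every run B library. On chow the mesentery exceeded adipose in both runs, by 1.67 ± 0.32 with the block (edgeR adjusted p = 0.000196; 1 of 8 members, 0.386% of genes called) and 1.24 ± 1.41 without it (adjusted p = 1). DESeq2 and limma-voom with the block did not call it (1.54 and 2.20, adjusted p = 1 for both), nor did edgeR in cells without adipocyte UMIs (1.59, adjusted p = 0.999). The call was also lost without either chow mesentery library (1.27 and 1.96), the run B chow adipose library (0.64) or the run B high fat mesentery library (1.63).

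In adipose the diet difference of capillary-like Plvap had opposite signs in the runs, -1.38 in run A and 2.85 in run B on the log2 scale. The blocked fit gave 1.17 ± 0.33 (edgeR adjusted p = 0.0397; 1 of 8 members, 1.28% of genes called) and the fit without the block -0.60 ± 1.40, so no direction is drawn from it. Ehd4 had the same split between runs, 221 to 466 CPM in run A and 63.2 to 117 in run B. In arterial-like cells too Ehd4 was higher in run A (643 to 959 CPM) than in run B (131 to 338 CPM). The capillary-like class differed between runs in its markers: summed venous markers were 855 to 1442 CPM in run A and 282 to 516 in run B, and capillary markers 6372 to 10560 and 15200 to 17340. Cluster 2 held 87.3% of this class in chow adipose of run B and 4.4 to 67.5% in the other libraries, with cluster 1 holding the rest. Adipocyte markers summed to 3685 and 4020 CPM in the run B chow libraries and 0 to 368 CPM in the others. The part of these differences in the Plvap values was not tested.

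**Figure D4:**
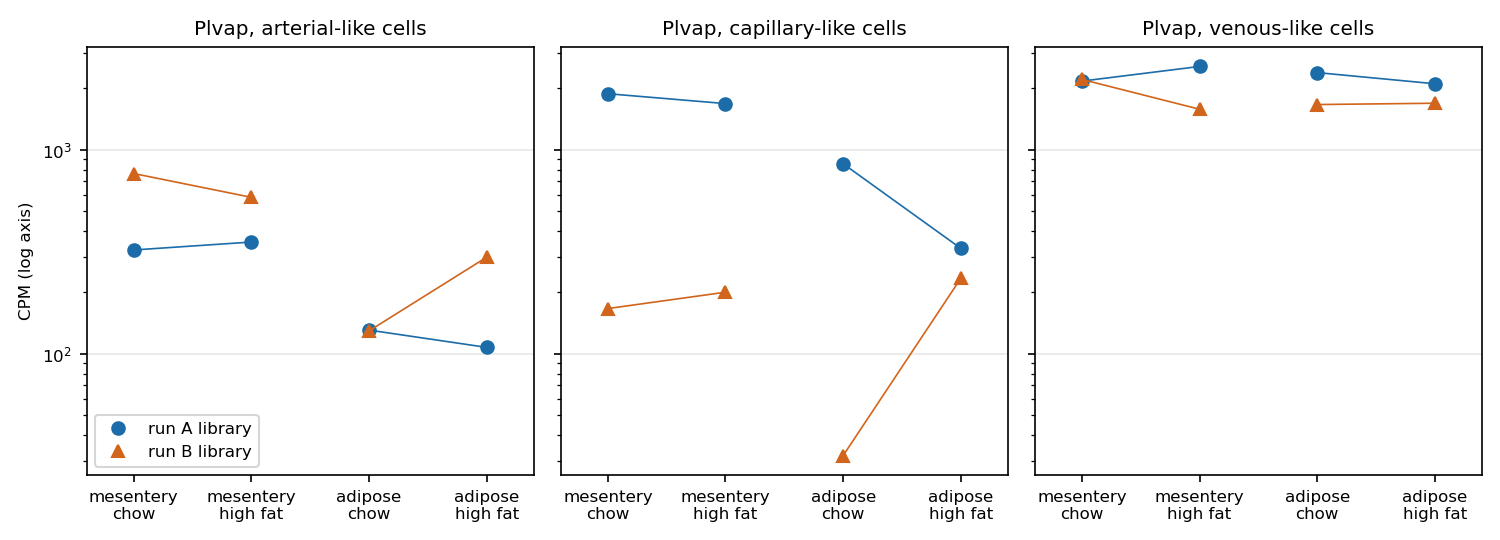
Plvap in CPM (log axis) in arterial-like, capillary-like and venous-like cells by tissue and diet; circles are run A, triangles run B, and lines join the diets of a tissue within a run. Mesentery stands above adipose in arterial-like cells in both runs and diets, capillary-like cells are split by run, and venous-like cells lie between 1582 and 2564 CPM in all groups.

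In venous-like cells no member passed the test in any contrast. Plvap was 2173 and 2215 CPM in chow mesentery, 2392 and 1668 in chow adipose, 2564 and 1582 in high fat mesentery and 2109 and 1693 in high fat adipose, runs A and B in turn. The groups overlap, and the diet difference was -0.08 ± 0.41 in mesentery and -0.09 ± 0.41 in adipose (edgeR adjusted p = 1 for both). Ehd4 ranged from 1090 to 1748 CPM with no call. The venous-like cells of the tissues were not of the same clusters: cluster 8 held 77.7 and 69.3% of them in chow mesentery, and cluster 16 held 65.2 and 43.7% in chow adipose. With the block 0 of 8 members were called in any venous-like contrast, where 1.71% of genes were called for tissue on chow and at most 0.235% in the others. An unadjusted edgeR p under 0.05 was found in 3 member tests over the 5 contrasts. These were 2 for tissue on chow and 1 for diet in mesentery, beside 959 and 683 of all 10623 genes.

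No caveolin or cavin gene passed the test for diet in arterial-like cells. Cav1 was 615 and 1388 CPM in chow mesentery, 695 and 1560 in high fat mesentery, 1075 and 1748 in chow adipose and 857 and 1584 in high fat adipose. The runs differed more than the diets: in all 4 groups run B was higher, by a mean of 0.98 on the log2 scale, and Cav2 by 1.49. With the run as block the median of the 8 members was 0.15 for diet in mesentery (0.01 over all genes tested) and -0.11 for diet in adipose (-0.01 over all genes). In each of these contrasts edgeR called 0 of 8 members, where 0.555% and 0.327% of genes were called. An unadjusted p under 0.05 was found for 1 of 8 members in each, and for 516 and 303 of 9183 genes.

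In lymphatic-like cells Cavin3 and Ehd2 were low in chow mesentery. Cavin3 measured 223 and 155 CPM there, 632 and 490 in chow adipose, 440 and 527 in high fat mesentery and 436 and 585 in high fat adipose. Ehd2 measured 134 and 95.6 CPM in chow mesentery, 279 and 250 in chow adipose, 253 and 282 in high fat mesentery and 226 and 187 in high fat adipose. For both genes the 2 chow mesentery libraries lay below all 6 others. With the block, mesentery against adipose on chow was -1.58 ± 0.27 for Cavin3 (edgeR adjusted p = 0.00253) and -1.22 ± 0.23 for Ehd2 (0.00426). High fat against chow in mesentery was 1.37 ± 0.27 for Cavin3 (adjusted p = 0.01) and 1.25 ± 0.23 for Ehd2 (0.00629).

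These were 2 of 8 members in contrasts where 9.39% and 6.24% of all genes were called, and without the block their adjusted p lay between 0.0742 and 0.22. The median over the members was -0.38 for tissue on chow and 0.33 for diet in mesentery, beside 0 over all genes for both. The diet calls were lost without the run B high fat mesentery library (both genes) or the run B chow mesentery library (Cavin3). The tissue calls were lost without the run A chow adipose library (Cavin3) or the run B chow adipose library (Ehd2). The interaction of diet and tissue was 1.61 ± 0.32 for Ehd2 (edgeR adjusted p = 0.0643) and 1.5 ± 0.38 for Cavin3 (0.139). With the block DESeq2 called both (adjusted p = 0.0115 for Ehd2 and 0.0331 for Cavin3) and limma-voom called Ehd2 (0.0371) but not Cavin3 (0.0767), so whether the diet difference depended on the tissue varied with the tool.

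The class held different cells in different groups. Cluster 14, led by Marco, Clec4g and Bmp2, made up 24.1 and 58.9% of lymphatic-like cells in chow mesentery, 7.3 and 1.5% in high fat mesentery, and no cell in adipose. Marco and Clec4g are scavenger and lectin receptor genes. Over its 3 libraries with at least 10 cells this cluster held 38.2 to 133 CPM of Cav1, 21.1 to 40.7 of Ehd2 and 78.6 to 95.4 of Cavin3, each below cluster 4 of the same library. Its Cavin2 was 426 to 501 CPM, where cluster 4 held 2590 to 3540 CPM in those libraries. Ehd4 was 119, 129 and 77.6 CPM, close to the 112, 125 and 61.4 CPM of cluster 4, and Plvap was 1035 to 1262 CPM. Without cluster 14, a choice made after seeing the data and so with no test, the blocked Ehd2 differences were -0.25 ± 0.20 for tissue and 0.36 ± 0.19 for diet, and those of Cavin3 -0.80 ± 0.21 and 0.66 ± 0.21. Fewer cells of a kind and less RNA per cell cannot be told apart in the summed class.

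Inside lymphatic-like cluster 4, led by Reln, Mmrn1 and Lyve1, Plvap was nearly missing in chow mesentery. Its level was 27.9 CPM in run A (17 UMIs in 286 cells) and 31.5 CPM in run B (21 UMIs in 173 cells). In chow adipose it was 558 and 578 CPM, and in run B that is 18.4-fold higher. On high fat diet the mesentery cells held 155 and 376 CPM, 5.54-fold and 12.0-fold above chow, and adipose cells 317 and 553 CPM. A Plvap UMI was seen in 5.6% (exact 95% interval 3.2 to 8.9%) and 6.9% (3.6 to 11.8%) of chow mesentery cells, 28.8% and 51.2% of high fat mesentery cells, 40.1% and 55.5% of chow adipose cells, and 35.8% and 61.4% of high fat adipose cells. The 2 chow mesentery libraries lay below all others by both measures.

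The same was seen in both subdivisions of cluster 4 at a finer clustering. In the larger, Plvap was 30.1 and 38.5 CPM in chow mesentery, 284 and 493 in chow adipose, 149 and 377 in high fat mesentery and 267 and 369 in high fat adipose. In the smaller, led by Ccl21a, the values in that order were 13.1 and 0 CPM (1 UMI in 66 cells, and 0 in 55 cells, which allows up to 5.45% of cells), 682 and 842, 227 and 368, and 468 and 981. Summed lymphatic markers in cluster 4 were 37870 and 56370 CPM in chow mesentery, the lowest value of each run. The other libraries had 40580 to 42650 CPM in run A and 64720 to 76790 CPM in run B. Venous markers were 1368 and 1183 CPM in chow mesentery, beside 995 to 1549 CPM in run A and 1512 to 1847 CPM in run B. The part of these marker differences in the Plvap values was not tested. Adipocyte markers summed to at most 189 CPM, in chow mesentery of run B. Cavin3 in cluster 4 was also lower in chow mesentery (299 and 261 CPM) than in the other 6 libraries (444 to 610 CPM), and Ehd2 ranged from 205 to 322 CPM. Cav1 in cluster 4 was 488 and 869 CPM in chow mesentery, 399 and 545 in high fat mesentery, 363 and 473 in chow adipose and 314 and 345 in high fat adipose, below chow in each tissue and run. Because cluster 4 was singled out after its values were seen, these differences carry no test.

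Lymphatic-like cluster 13, led by Nts, Ackr4 and Cldn11, did not share the pattern. Its Plvap was 577 and 1053 CPM in chow mesentery, 405 and 1009 in chow adipose, 367 and 1001 in high fat mesentery and 332 and 1071 in high fat adipose, with the groups overlapping. In the summed lymphatic-like class Plvap was 597 and 1053 CPM in chow mesentery and 580 and 661 in chow adipose, a difference of 0.41 ± 0.50 (edgeR adjusted p = 0.979), while without cluster 14 it was -0.93 ± 0.67.

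**Figure D5:**
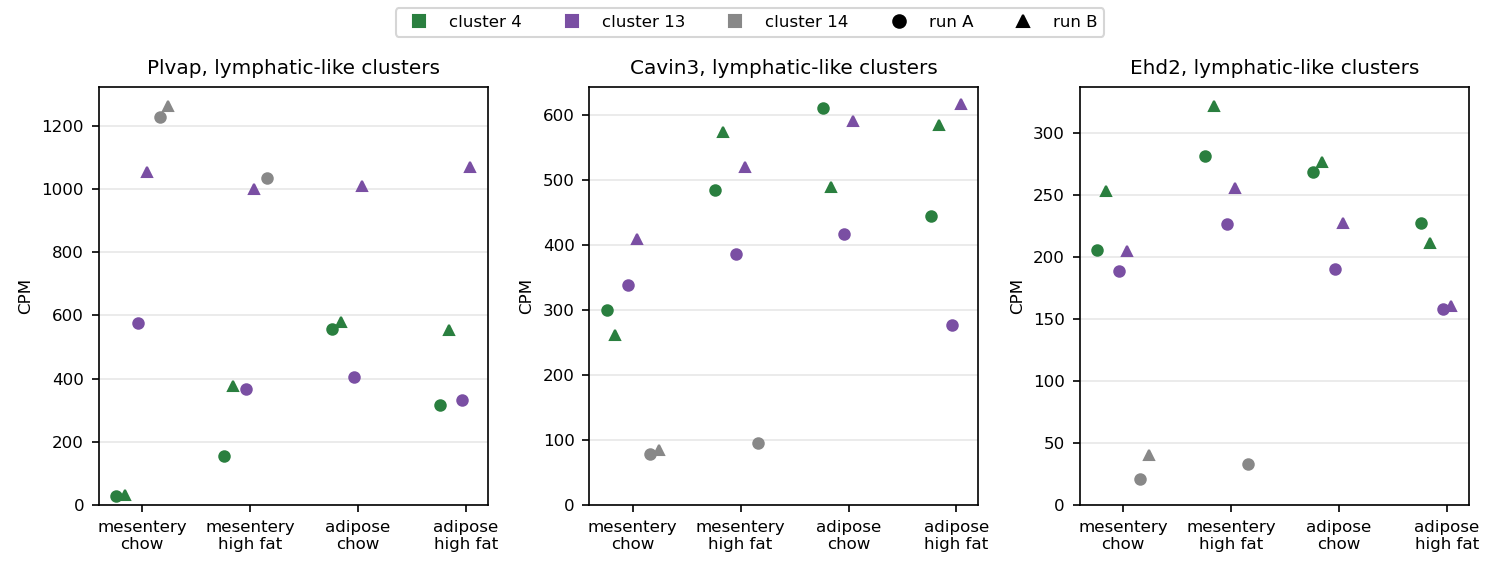
Plvap, Cavin3 and Ehd2 in CPM in the 3 lymphatic-like clusters by tissue and diet, 1 point per library with at least 10 cells (circles run A, triangles run B; green cluster 4, purple cluster 13, grey cluster 14). Cluster 4 has 27.9 and 31.5 CPM of Plvap in chow mesentery and 155 to 578 CPM elsewhere, and cluster 14 has the lowest Cavin3 and Ehd2.

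Of 42 genes in lists of caveolar relatives, caveolar signalling partners, flotillin and stomatin scaffolds and the clathrin coat, 35 or 36 were tested in each class. Without the block 1 was called: Ehd3, an EHD ATPase of endosomes, was higher in lymphatic-like cells of chow mesentery, at 130 and 158 CPM against 12.3 and 9.52 CPM in chow adipose (3.71 ± 0.54, edgeR adjusted p = 0.0217). In high fat mesentery it was 36.2 and 12.3 CPM, a blocked difference from chow of -2.56 ± 0.34 (edgeR adjusted p = 0.00159). With the block Ehd3 was also higher in venous-like cells of chow mesentery (2.59 ± 0.51, adjusted p = 0.0201), a call lost with limma-voom (0.0535) and without either chow adipose library. Nostrin, which binds endothelial nitric oxide synthase and traffics it, was higher in chow mesentery in capillary-like cells (1.69 ± 0.36, adjusted p = 0.00166), a call not made with the block by DESeq2 (0.253), limma-voom (1) or edgeR in cells without adipocyte UMIs (0.245), and lost without the run B library of chow mesentery, chow adipose or high fat mesentery. In lymphatic-like cells it was higher too (edgeR adjusted p = 0.00716), a call lost without either chow adipose library or the run B chow mesentery library. There it had 28 and 180 UMIs in chow mesentery and 2 and 0 in chow adipose, so the size of that difference is not given.

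For lymphatic-like cells with the block, 3 of 35 list genes were higher and 3 lower in chow mesentery than in chow adipose, where 6.22% of all genes were higher and 3.18% lower. On high fat diet in mesentery 2 were higher and 2 lower, where 2.28% of all genes were higher and 3.96% lower. For the list genes, other tools with the block and fits without 1 library were chosen after seeing the data. Both Ehd3 calls in this class held with each library left out in turn and with DESeq2 and limma-voom. DESeq2 with the block did not call Pacsin3, Ap2a2, Dnm3, Stom or Epn2, and edgeR in cells without adipocyte UMIs did not call Ap2a2 or Dnm3. Cluster 14, with its unequal shares between these groups, is part of both contrasts. Pacsin2 and Pacsin3, membrane-curving proteins of which Pacsin2 acts at caveolae, were lower in chow mesentery by -0.99 ± 0.23 (edgeR adjusted p = 0.0174) and -1.16 ± 0.31 (0.0336), both lost without the run B library of chow mesentery or of chow adipose. The kinase gene Fyn was lower as well (-1.14 ± 0.26, adjusted p = 0.0141), and Ap2a2, a clathrin adaptor subunit, higher (0.80 ± 0.23, adjusted p = 0.045). Fyn was lost without either of those libraries or the run A chow adipose library, and Ap2a2 was called in 1 of 8 fits without 1 library. With high fat diet in mesentery the dynamin gene Dnm3 (1.11 ± 0.29, adjusted p = 0.0418) and the scaffold gene Stom (2.09 ± 0.52, adjusted p = 0.0334) rose and the clathrin adaptor gene Epn2 fell (-1.05 ± 0.22, adjusted p = 0.0131). Of 8 fits without 1 library, Dnm3 was called in 1 and Stom in 0, and Epn2 was lost without either high fat mesentery library or the run B chow mesentery library. In venous-like cells of chow mesentery Nrp1, a VEGF co-receptor gene, was lower (-1.94 ± 0.27, edgeR adjusted p = 0.00162) and so was Dab2 (-0.98 ± 0.22, adjusted p = 0.0414), a clathrin adaptor gene. With Ehd3, 1 of 36 list genes was higher and 2 lower there, where 0.678% of all genes were higher and 1.04% lower. Cluster 8 held 77.7 and 69.3% of venous-like cells in chow mesentery and 2.6 and 6.4% in chow adipose. The part of this unequal make-up in the 3 venous-like calls was not tested. The Nrp1 call was lost without the run A chow adipose library (0.0501), and that of Dab2 without any 1 of the 4 chow libraries.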

How the data were processed

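The values are UMI counts of genes in single cells, as the authors deposited them, for 8 libraries of 3′ RNA. Per the file headers the matrices were written by software version 3.0.2 (run A) and 5.0.0 (run B); the submitters' processing notes name mm10 and Seurat 4.3.0. The 30406 genes in both gene lists were used. Cells with under 500 UMIs, under 300 genes or over 10% mitochondrial UMIs were left out. The doublet caller's automatic threshold marked 36 cells (0.15%), so 857 were removed by an expected rate, leaving 23113. Libraries shared at most 10 barcodes. Run A had 3461360 to 6714473 UMIs a library and run B 18829960 to 36779289.

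Cells were clustered with scanpy 1.11.5 (2000 variable genes without the members and list genes, 30 components, 20 neighbours, resolution 1.0), and clusters were named where at least 3 markers were raised 1.5-fold. Counts were summed per library and class (at least 10 cells), filtered for low counts, TMM-scaled and tested over all genes with edgeR 4.0.16 (quasi-likelihood, Benjamini-Hochberg), 8 libraries per fit; the SE is the log2 change over the square root of F. DESeq2 1.42.0 and limma 3.58.1 (voom) were alternatives, besides other filters, clusterings and each library left out. Same-run libraries correlated in their deviations from group means (r = 0.27 to 0.66 over classes), and the experiment was repeated as a whole, which is where the pairing comes from; blocked fits are given beside the unblocked ones. On simulated counts for diet in mesentery in arterial-like cells (9099 genes) the unblocked fit recovered 0% and the blocked fit 82% of 100 genes changed 2 log2 units, and 13% of 100 changed 1 log2 unit. The simulated run effect of a gene was the same in every group, as the blocked fit assumes. In the data it could differ between groups, for capillary-like Plvap from -4.71 to -0.48 log2 units (run B minus run A). The simulation therefore cannot tell how far the blocked calls hold.

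Members, lists and tests were chosen with earlier results of these data known. Named genes are the 8 members, list genes past the threshold, and the 5 most like Cav1 and Plvap, of which 1 is not reported here. Promoter windows are from RefSeq, matched for 6 of 8 members.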

Additional observations from a re-analysis of the deposited data

Results flagged for a closer look

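In lymphatic-like cluster 4, 3 of the 8 genes had diet differences of opposite sign in the 2 tissues in both runs. These differences between tissues were not tested, and the cluster was singled out after its values were seen. The share of all genes with such signs was not counted, so the 3 of 8 is not read as a result about the members. Values are means of the 2 runs of high fat minus chow, in log2(CPM + 1). For Plvap the difference was 2.99 in mesentery and -0.44 in adipose, where it was -0.81 in run A and only -0.06 in run B. For Ehd2 it was 0.40 in mesentery and -0.32 in adipose. For Cav2 it was -0.56 in mesentery and 0.12 in adipose, where it was 0.22 in run A and only 0.03 in run B. Plvap and Cav2 thus hardly changed with diet in adipose in run B.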

How the results depend on the processing

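Without a run term no member was called, and 221 of 240 alternatives kept that count of 0. The fit without a run term called any gene at all in only 1 of 20 contrasts. A kept count of 0 therefore says little about how stable the members are. The replicate block, with libraries paired by run, raised it to 1 for tissue on chow in arterial-like cells, 1 each for tissue on chow and diet in adipose in capillary-like cells, and 2 each for diet in mesentery and tissue on chow in lymphatic-like cells. With the block, DESeq2, limma-voom and cells without adipocyte UMIs gave 1 in the arterial-like contrast, 2 for lymphatic-like diet in mesentery, and 2, 3 and 3 for lymphatic-like tissue on chow. Of all genes these settings in turn called 12, 19 and 9, then 290, 620 and 528, then 530, 788 and 814 in the same contrasts. In the lymphatic-like interaction DESeq2 called 2 members and limma-voom 1, where they called 62 and 33 of all genes. Without the block, no filter on low counts gave 1 for tissue on chow in arterial-like and in lymphatic-like cells, and DESeq2 1 in the latter. Of all genes, tissue on chow in lymphatic-like cells had 171 calls, 669 without the filter, 283 by DESeq2, 6 by limma-voom and 846 with the block. In arterial-like cells 17 genes were called for tissue on chow without the filter.

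Plvap in capillary-like cells changed direction, and the cause was not tested. Its diet difference in adipose was -0.60 without the block, 1.17 with it and 1.88 by limma-voom, and -1.68 to 3.13 (no block) or -0.92 to 2.39 (block) without single libraries, -0.10 without the run B chow adipose library. Its tissue difference on chow ranged from -1.33 to 4.96 without the block. Without thinning, mean shares of cells with a UMI were 64.0% for Cav2, 71.6% for Cavin1 (capillary-like), 74.5% for Cavin3, 89.0% for Ehd4, 92.7% for Plvap (venous-like) and 65.8% for Ehd2 (arterial-like). Each group has 2 pools, and run A has few capillary-like cells at low depth.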
